A study of Mus musculus with 4 samples.

Results

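Cells sense fatty acids and related lipids through a small set of G-protein-coupled receptors, and 5 genes of this kind were followed in mouse pancreatic islets: Ffar1, Ffar2, Ffar3, Ffar4 and Gpr119. They were chosen by gene symbol, and all 5 were found among the 55536 genes of the count table. Islets are groups of hormone-secreting cells within the pancreas, and these came from male C57BL/6 mice aged 8 weeks. Polyadenylated RNA was sequenced in 2 non-depleted libraries and in 2 insulin-depleted libraries, in which insulin sequences were removed during library preparation with a DepleteX panel of Jumpcode Genomics. The labels number the libraries of each group as biological replicates 1 and 2, but every column name of the table carries the same pair of codes. Whether separate animals gave them is therefore unknown, and p-values measure only the spread between libraries. Libraries of the same number deviated alike in the 2 groups (correlation 0.415 over genes). The main test, on group alone, counts this shared difference as spread, and whether it is technical was not tested. Non-depleted column names also hold a size-selection tag that the others lack, so depletion and any such step cannot be told apart.

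As background, FFAR1 (GPR40) and FFAR4 (GPR120) bind long-chain fatty acids, FFAR2 (GPR43) and FFAR3 (GPR41) bind short-chain fatty acids such as acetate and propionate, and GPR119 responds to lipid amides and monoacylglycerols. FFAR1 couples mainly to Gq and, at high glucose, strengthens insulin secretion from beta cells, while GPR119 couples to Gs and raises cyclic AMP. FFAR2 couples to Gi and Gq, FFAR3 to Gi, and FFAR4 has been placed mainly in the somatostatin-secreting delta cells of islets.

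Libraries held 50605417 and 60528485 counts without depletion, and 19316173 and 65030111 counts with depletion (replicates 1 and 2). The insulin genes Ins1 and Ins2 took 3.97 to 4.14% of counts in the non-depleted and 0.195 to 0.264% in the insulin-depleted libraries. Levels are given as CPM, the count scaled to 1000000 counts of the library total without Ins1 and Ins2. Pairs of values stand in the order replicate 1, replicate 2. A limit of 3 counts then corresponds to 0.0463 to 0.156 CPM. The labelled tissue carried its defining markers, with the amylin gene Iapp at 17396 to 18761 CPM and the glucagon gene Gcg at 11136 to 12812 CPM. In bulk RNA, fewer cells of a type and less RNA per cell cannot be told apart.

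Ffar1, Ffar3 and Ffar2 lie next to each other on the minus strand of chromosome 7 (GRCm38). Ffar1 (ENSMUSG00000044453) spans 30857390 to 30861564, Ffar3 (ENSMUSG00000019429) spans 30854330 to 30856178, and Ffar2 (ENSMUSG00000051314) spans 30818348 to 30823775. Only 1211 bases separate Ffar1 from Ffar3 downstream of it, and a further 30554 bases separate Ffar3 from Ffar2. Ffar4 (ENSMUSG00000054200) lies on the plus strand of chromosome 19, from 38097071 to 38114263, and Gpr119 (ENSMUSG00000051209) on the minus strand of the X chromosome, from 48667979 to 48674478. All are annotated as protein-coding, and their exons share 0 bases with other annotated genes, so strand use in counting would not move exonic reads between genes. Coding lengths are alike, from 900 bases in Ffar1 to 1083 in Ffar4, but total exon lengths run from 1401 bases in Ffar4 to 4175 in Ffar1. Untranslated sequence makes up 78.4% of the longest Ffar1 transcript and 22.5% of that of Ffar4.

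Promoter sequence is shown for 3 of the genes: for Ffar1 and Ffar3 because they are close neighbours with very different levels, and for Ffar4 because its window had the highest share of G and C. Each is the part of the RefSeq window (GRCm38.p6, 250 bases before to 50 after a start) that lies upstream of that start and outside annotated exons, written 5′ to 3′ on the strand of the gene. Capitals mark the motifs CAGATG (an E-box of the kind bound by NeuroD), TGACGTCA (the full cyclic AMP response element) and GGGCGG (a GC box) on either strand, none of which overlap each other here. For Ffar1 the RefSeq start lies inside the first exon of GENCODE, so its stretch is shorter.
Ffar1 (chr7:30861565-30861720, minus strand): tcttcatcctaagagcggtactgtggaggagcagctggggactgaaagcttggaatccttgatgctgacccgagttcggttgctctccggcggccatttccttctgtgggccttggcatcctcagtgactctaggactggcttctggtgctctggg
Ffar3 (chr7:30856179-30856428, minus strand): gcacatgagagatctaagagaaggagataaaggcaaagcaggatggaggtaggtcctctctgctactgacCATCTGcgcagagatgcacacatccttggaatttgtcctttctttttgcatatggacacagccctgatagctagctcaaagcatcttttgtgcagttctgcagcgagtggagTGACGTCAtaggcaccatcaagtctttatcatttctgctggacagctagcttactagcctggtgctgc
Ffar4 (chr19:38096829-38097070, plus strand): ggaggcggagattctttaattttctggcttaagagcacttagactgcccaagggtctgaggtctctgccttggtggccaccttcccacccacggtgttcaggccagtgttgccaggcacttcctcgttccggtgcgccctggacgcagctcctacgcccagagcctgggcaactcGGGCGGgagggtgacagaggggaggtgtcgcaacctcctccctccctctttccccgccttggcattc

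The whole 300-base windows of Ffar1, Ffar3 and Ffar4 held 56.3%, 50.3% and 63.7% G and C, beside a median of 52.7% over 32851 windows of all genes. Gpr119 had 50.3%, and the 4 windows of Ffar2 ranged from 50.7 to 57.0%. The full element TGACGTCA was found in the window of Ffar3 alone among the 5 genes, and in 1.79% of all windows. Its first part, TGACG, which overlaps it, was found for Ffar3 and Gpr119 and in 20.8% of all windows. CAGATG was found for Ffar1, Ffar3 and Ffar4 and in 17.2% of all windows, and in Ffar1 and Ffar4 it lay in transcribed bases that are not printed. GGGCGG was found for Ffar2 and Ffar4 and in 35.7%, CCAAT for Ffar2 and Ffar3 and in 37.4%, CACGTG for Ffar2 and in 7.15%, and TATAAA for 0 of the 5 and in 13.6%. Ffar2 was named when any of its 4 windows held the motif, whereas the shares are of single windows, so the 2 are not alike. These matches describe letters only and do not show binding.

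Reads of these genes could be told from those of other genes over nearly all of their length. Of 4078 different 31-base stretches of Ffar1 transcripts, 57 (1.40%) also occurred in other genes, and of 2774 in Ffar2, 9 (0.324%) did. For Ffar3, Ffar4 and Gpr119 the numbers were 0 of 1848, 0 of 1371 and 0 of 2239. None of the 5 genes shared a 20-base stretch with Ins1 or Ins2 on either strand (0 in each), and the longest identical stretches were 11 to 14 bases.

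Ffar1, the long-chain fatty acid receptor of beta cells, was the most abundant of the group also per kilobase of exon. Without depletion its level was 169.1 CPM in replicate 1 and 181.3 CPM in replicate 2, and with depletion it was 175.5 and 177.5 CPM. These values came from 8205, 10538, 3384 and 11512 counts. Both insulin-depleted libraries lay between the non-depleted ones, so the groups overlapped. Group means were 175.2 ± 8.595 CPM for non-depleted and 176.5 ± 1.387 CPM for insulin-depleted libraries (SD, n = 2 each).

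Ffar4 encodes the other long-chain fatty acid receptor. Its level without depletion was 9.235 CPM in replicate 1 and 11.6 CPM in replicate 2, and with depletion 8.40 and 9.76 CPM. In each group the library numbered 2 was the higher, and the groups overlapped. Between libraries of the same number the insulin-depleted one was lower, with ratios of 0.910 (replicate 1) and 0.841 (replicate 2). The labels do not say that equal numbers pair the libraries. The means were 10.4 ± 1.68 and 9.08 ± 0.959 CPM (SD, n = 2 each). Of 5 delta-cell markers, Sst, Ghsr and Lepr were also higher in the library numbered 2 of each group, Hhex was lower there in each group, and Rbp4 was lower without and higher with depletion. The somatostatin gene Sst, which makes up most of their sum, had 527 and 665 CPM without and 532 and 658 CPM with depletion. The sum of the 5 was 618 and 758 CPM without and 621 and 751 CPM with depletion, with 0 of 5 called, and their part in the Ffar4 values was not tested. Adipocytes also express Ffar4. The 5 adipocyte markers summed to 0.104 to 0.172 CPM in the 4 libraries, with the leptin gene Lep at 0 counts.

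The nearest gene to Ffar4, 2365 bases beyond its 3′ end and on the opposite strand, is Rbp4, which encodes a retinol carrier and served as a delta-cell marker. Rbp4 had 61.45 and 60.35 CPM without and 57.3 and 62.7 CPM with depletion. On its other side lies Cep55, a gene of cell division, at 0.165 to 0.311 CPM.

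Ffar2 encodes a receptor for short-chain fatty acids. Without depletion it stood at 22.0 and 21.4 CPM, and with depletion at 19.97 and 22.4 CPM. The 4 values were close to each other and the groups overlapped, with means of 21.7 ± 0.396 and 21.2 ± 1.73 CPM (SD, n = 2 each). Myeloid cells also express this receptor, and the 8 myeloid markers summed to 68.2 and 73.2 CPM without and 62.9 and 71.4 CPM with depletion, with 0 of 8 called. The 5 neutrophil markers summed to 0.740 to 1.15 CPM, with Ly6g at 0 counts in all 4 libraries. The part of such cells in the Ffar2 level was not tested.

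Ffar3, the other short-chain fatty acid receptor, varied more between libraries. It reached 10.97 and 9.82 CPM without depletion, and 11.05 and 7.97 CPM with it. The libraries numbered 1 were the higher ones in both groups, the reverse of Ffar4, and the groups overlapped. The means were 10.4 ± 0.809 and 9.51 ± 2.18 CPM (SD, n = 2 each). The sum of the acinar markers was likewise higher in the libraries numbered 1, although Rbpjl was not in the insulin-depleted pair. The 10 markers summed to 13368 and 5520 CPM without and 13393 and 5532 CPM with depletion, with 0 of 10 called. This direction was not particular to acinar markers. The gamma-cell markers summed to 3344 and 2429 CPM without and 3253 and 2396 CPM with depletion. Sums of the beta- and alpha-cell markers were also higher in the libraries numbered 1, and those of delta and epsilon cells were lower there. The part of any of these cell types in the Ffar3 values was not tested.

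Gpr119, the receptor for lipid amides and monoacylglycerols, was the least abundant also per kilobase. Without depletion it had 3.999 and 3.79 CPM, from 194 and 220 counts. With depletion it had 2.13 and 2.74 CPM, from 41 and 178 counts. Gpr119 was the only gene of the 5 for which the groups did not overlap, with each depleted library under each non-depleted one. Of 19721 genes tested other than Ins1 and Ins2, 9.33% showed this same order and 10.2% the opposite one. The group means were 3.89 ± 0.1515 and 2.44 ± 0.437 CPM (SD, n = 2 each). Its exact 95% Poisson intervals ran from 3.46 to 4.60 and 3.30 to 4.32 CPM without, and from 1.53 to 2.885 and 2.36 to 3.18 CPM with depletion, and did not overlap between groups. Most low counts in this table were even, as though each read pair had been counted by both its mates, and with counts taken in twos the intervals did overlap, the lowest bound without depletion being 3.11 and the highest with depletion 3.38 CPM. All these intervals cover counting error only.

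**Figure D1:**
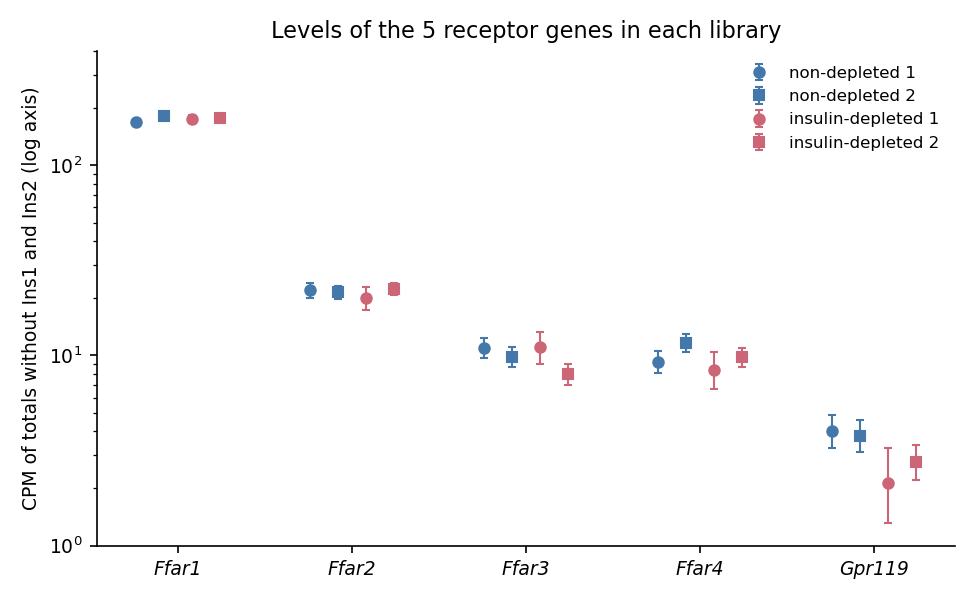
CPM (log axis) of the 5 receptor genes in each of the 4 libraries, with circles for replicate 1, squares for replicate 2, blue for non-depleted and red for insulin-depleted libraries. Bars are exact 95% Poisson intervals with counts taken in twos. Ffar1 lay between 169 and 181 CPM in all libraries, and only for Gpr119 did both red points lie below both blue ones.

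Levels of different genes were compared per kilobase of exon, since a longer transcript collects more reads. On this scale Ffar1 led with 42.1 ± 1.22 CPM per kilobase (SD over the 4 libraries). It was followed by Ffar2 (7.69 ± 0.383), Ffar4 (6.96 ± 0.971), Ffar3 (5.38 ± 0.776) and Gpr119 (1.39 ± 0.389). Of the 4 pairs of neighbours in this order, 3 had ranges over the libraries that did not overlap. Ffar2 (7.16 to 8.035) and Ffar4 (5.998 to 8.289) overlapped. Ffar4 and Ffar3 (4.311 to 5.975) were barely apart, and their order turned when the coding length was used in place of the exon length, with 9.005 CPM per kilobase for Ffar4 and 10.4 for Ffar3. Neither Ffar2 and Ffar4 nor Ffar4 and Ffar3 were thus ordered beyond their spread and the choice of length, while Ffar2 stood above Ffar3 without overlap.

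Within libraries, the ratio of Ffar1 to Ffar2 per kilobase was 5.14 and 5.65 without and 5.87 and 5.29 with depletion. With the coding length it averaged 9.035 ± 0.551 (SD, n = 4 libraries). The ratio of Ffar1 to its close neighbour Ffar3 was 6.83 and 8.17 without and 7.04 and 9.86 with depletion, and was higher in the library numbered 2 of each group. The ratio of Ffar1 to Gpr119 was 23.0 and 26.0 without and 44.86 and 35.15 with depletion. With the coding length, the mean ratio to Ffar3 moved from 7.975 to 19.15 and that to Gpr119 from 32.26 to 66.28. Both lengths divide the same gene counts, so any reads in untranslated bases raise the coding-length values, most of all for Ffar1. With the exon length, Ffar1 made up 66.3% of the length-scaled sum of the 5 genes, and this share depends on the length used.

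**Figure D2:**
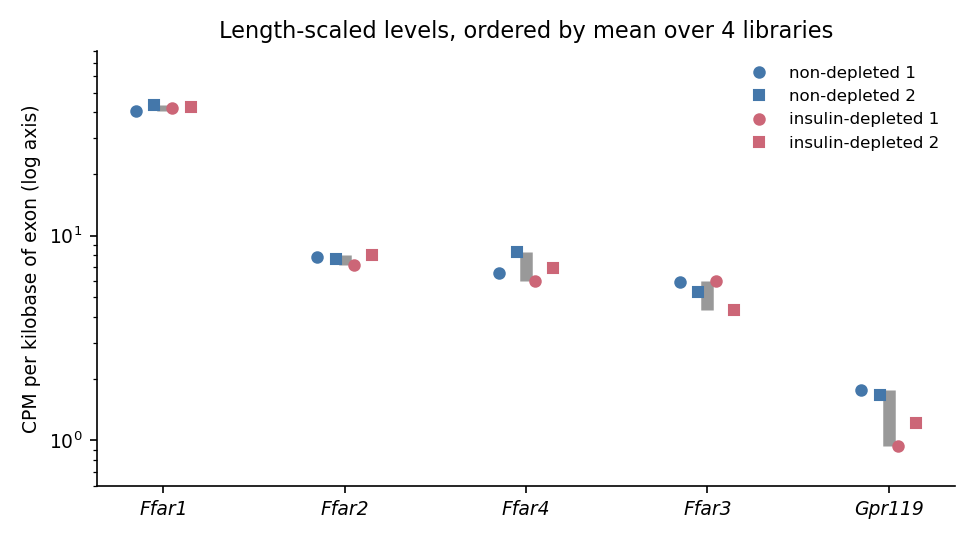
CPM per kilobase of exon (log axis) of the 5 receptor genes, ordered by their mean over the 4 libraries. Circles and squares are replicates 1 and 2, blue is non-depleted, red is insulin-depleted, and grey bars span the range of the 4 libraries. Ffar1 stood at 42.1, the middle 3 genes lay between 4.31 and 8.29, and Gpr119 lay between 0.937 and 1.76.

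Among all 19721 genes tested other than Ins1 and Ins2, Ffar1 ranked 947 by mean CPM per kilobase, within the highest 4.802%. Ffar2 ranked 6091, Ffar4 6526, Ffar3 7637 and Gpr119 12117. The genes on the other side of Ffar1 were near the detection limit. Cd22, a B-cell gene whose 3′ end lies 3837 bases upstream of Ffar1, had 0.165 and 0.327 CPM without and 0.104 and 0.154 CPM with depletion. Mag, a myelin gene further upstream, averaged 0.155 CPM. Krtdap, the nearest gene beyond Ffar2, had 0 counts in all 4 libraries. Gpr119 lies between Slc25a14, a mitochondrial carrier gene with 16.7 to 20.5 CPM, and Rbmx2, a splicing factor gene with 10.5 to 13.7 CPM.

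**Figure D3:**
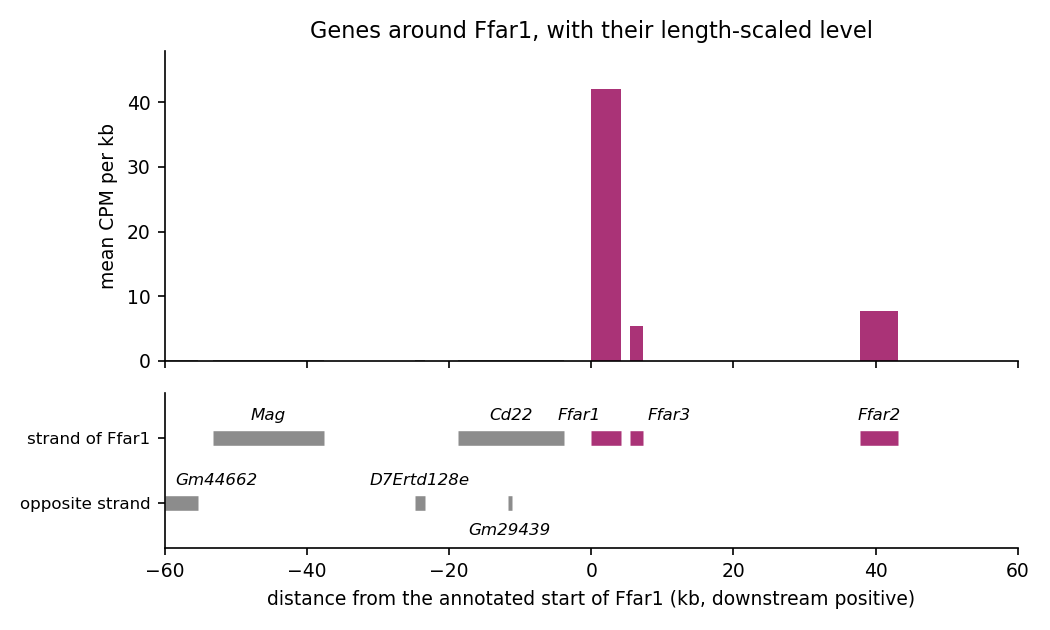
Genes within 60 kb of the annotated start of Ffar1, with mean CPM per kilobase over the 4 libraries (upper part, linear axis) and position and strand (lower part). Distance is in kb, with positive values downstream of Ffar1. The receptor genes (purple) stood at 42.1 for Ffar1, 5.38 for Ffar3 and 7.69 for Ffar2, and the other genes (grey) were close to 0.

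The comparison between groups asked whether depleting insulin sequences moved these receptor genes. All 5 had at least 41 counts in every library, passed the filter on low counts and were tested. In edgeR's quasi-likelihood test with Benjamini-Hochberg adjustment over 19723 genes, 0 of the 5 passed the threshold of 0.05, and the 2 genes that did, Ins1 and Ins2, were 0.0101% of those tested. The log2 fold change, insulin-depleted over non-depleted, was above 0 for 1 receptor gene and below 0 for 4. Their median was -0.15, beside -0.0025 for all other genes tested, and fold changes below 0 were found for 51.2% of those.

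Ffar1 had a log2 fold change of 0.0072 (SE 0.07), and its 95% interval of -0.18 to 0.19 holds changes between 0.884-fold and 1.14-fold. Ffar2 had -0.04 (SE 0.11, interval -0.32 to 0.25). The intervals of the less abundant Ffar3 and Ffar4 were wider, at -0.66 to 0.37 around -0.15 and -0.62 to 0.23 around -0.20. With a library left out, Ffar4 ranged from -0.34 without non-depleted replicate 1 to -0.03 without non-depleted replicate 2, with -0.30 and -0.11 without insulin-depleted replicates 2 and 1. Left-out libraries turned the sign for 3 of these genes, giving -0.0284 for Ffar1 without non-depleted replicate 1, 0.0311 for Ffar2 without insulin-depleted replicate 1 and 0.0936 for Ffar3 without insulin-depleted replicate 2. All 4 intervals contain 0, and they do not show that the levels were equal.

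Gpr119 had the largest difference of the 5, with a log2 fold change of -0.66 (SE 0.24). This is a 1.58-fold lower level, with a 95% interval for the ratio of 0.419 to 0.950. Its unadjusted p in edgeR was 0.0336, and its adjusted p over all genes was 1.00. Of the genes tested without Ins1 and Ins2, 0.406% had an unadjusted p under 0.05, and 0.223% had one with a lower level. With no true differences the fraction in either direction should lie near 0.05, well above the 0.406% found, so p-values from group alone ran high. The difference thus failed the correction, although both insulin-depleted libraries were lower. Without insulin-depleted replicate 1, the shallowest library, the log2 fold change was -0.52 and the unadjusted p 0.134, and without non-depleted replicate 1 or 2 the edgeR p was 0.153 or 0.0996. Without insulin-depleted replicate 2 they were -0.87 and, in edgeR, 0.03125. With a replicate block over all 4 libraries, Gpr119 had an unadjusted p of 0.00182 in edgeR and an adjusted p of 0.857. Exact permutation of 2 against 2 libraries cannot give a two-sided p below 0.333. In simulated counts, for changed genes averaging 2 CPM or more, the test recovered 4 of 50 that were changed 1.5-fold and 29 of 50 that were changed 2-fold. The simulation gave all genes the same variation beyond counting error and no difference shared by replicate number. Its changed genes were of many levels, so these rates need not hold for Gpr119 in these libraries.

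**Figure D4:**
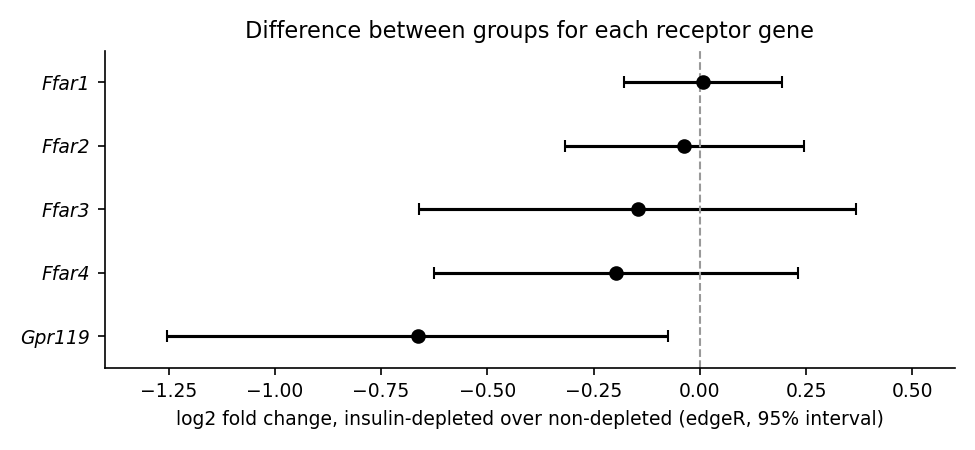
Log2 fold change, insulin-depleted over non-depleted, of the 5 receptor genes in edgeR, with 95% intervals not corrected for the number of genes. The intervals of Ffar1, Ffar2, Ffar3 and Ffar4 contain 0. That of Gpr119 runs from -1.25 to -0.07, and its adjusted p was 1.00.

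The receptor genes were next set beside 44 other genes for cell-surface receptors of lipids and metabolites, such as prostaglandins, lysophospholipids, cannabinoids and ketone bodies. By mean CPM per kilobase, Ffar1 was the highest of all 49. S1pr1, a sphingosine 1-phosphate receptor typical of endothelium, came next at 23.0 (range 20.54 to 25.95), below every Ffar1 value. Ffar2 was in place 3, Ffar4 in place 5, Ffar3 in place 8 and Gpr119 in place 13. The range of Hcar2 (5.56 to 9.59), the nicotinic acid and ketone body receptor, covered all values of Ffar2. The lysophosphatidic acid receptor gene Lpar6 ranged from 5.15 to 6.56, and S1pr3 from 5.25 to 6.70. Each of these other genes overlapped the ranges of both Ffar4 and Ffar3. Gpr119 overlapped with the prostaglandin receptor genes Ptgir (1.46 to 2.43) and Ptger3 (1.003 to 1.703). Gpr55, which has been linked to lysophosphatidylinositol, had a mean of 0.0769 CPM per kilobase, and Gpr174 and Oxgr1 had 0 counts in every library.

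**Figure D5:**
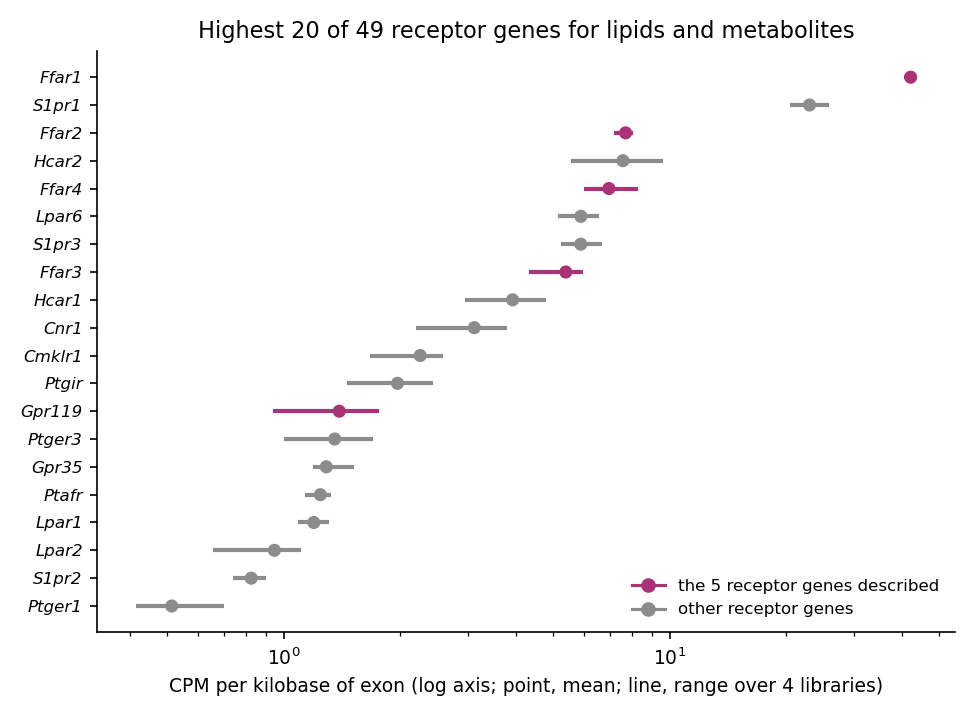
CPM per kilobase of exon (log axis) of the 20 highest of 49 receptor genes for lipids and metabolites. Points are means and lines span the range of the 4 libraries, with the 5 receptor genes described in purple and others in grey. Ffar1 lay above S1pr1 without overlap, while Ffar2, Ffar4 and Ffar3 lay among Hcar2, Lpar6 and S1pr3.

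Of these 44 other receptor genes 27 were tested and 0 were called in either direction, with 10 fold changes above and 17 below 0 and a median of -0.04. Those of highest CPM were S1pr1 (log2 fold change -0.05), Lpar6 (0.02) and S1pr3 (-0.04). The thromboxane receptor gene Tbxa2r, named after its values were seen, was the only tested gene of all 9 pathway lists whose unadjusted p in edgeR fell under the threshold, at 0.0362 (adjusted p = 1.00 by Benjamini-Hochberg). It had 0.948 and 0.826 CPM without and 0.311 and 0.4625 CPM with depletion.

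Genes of the signalling routes through which the receptors act were likewise not called. Of 17 genes of Gq, phospholipase C and calcium release, which serve FFAR1, 16 were tested, with 0 higher and 0 lower and a median of -0.01. The Gq subunit gene Gnaq had 245 and 242 CPM without and 225 and 248 CPM with depletion (log2 fold change -0.05). The protein kinase C gene Prkca (-0.0002) and the inositol trisphosphate receptor gene Itpr3 (-0.01) were also close to 0. Of 5 Gi and Go subunit genes, used by FFAR2 and FFAR3, 5 were tested and 0 called, with a median of -0.003. Gnai2 had 598 and 781 CPM without and 608.6 and 773.5 CPM with depletion, and Gnao1 (-0.03) and Gnai3 (0.05) followed it in level.

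For Gs and cyclic AMP, the route of GPR119, 16 of 16 genes were tested and 0 called, with a median of -0.004. The Gs subunit gene Gnas had 776 and 786 CPM without and 774 and 777 CPM with depletion. The kinase subunit gene Prkacb (0.04) and the adenylyl cyclase gene Adcy6 (0.03) were the next most abundant. Within this list the lowest value was that of Adcy5 (-0.33), named after its values were seen, at 2.16 to 2.99 CPM. Of 11 genes of arrestins, receptor kinases and RGS proteins, which switch receptors or G proteins off, 11 were tested and 0 called. Rgs4 had 780.5 and 629 CPM without and 782 and 624 CPM with depletion, and Grk3 (-0.03) and Grk2 (0.09) came after it.

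Genes that take up, release or otherwise sense the ligands gave no call either. Of 19 genes of fatty acid uptake, binding and activation, 14 were tested, with a median of -0.02. The acyl-CoA synthetase genes Acsl4 (0.06) and Acsl5 (-0.01) and the fatty acid binding protein gene Fabp4 (-0.05) were the highest, and Fabp1, Fabp2 and Fabp6 had 0 counts in all libraries. Among 15 enzymes that release or break down lipid ligands, 15 were tested, with a median of -0.03. Lpl, which frees fatty acids from circulating triglycerides, had 413 and 324 CPM without and 410 and 312 CPM with depletion, ahead of Gde1 (-0.03) and the triglyceride lipase gene Pnpla2 (0.08).

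Of 11 nuclear receptor genes for fatty acids and sterols 10 were tested, with a median of 0.01, led by Rxra (-0.06), Nr1h2 (0.02) and Ppard (0.04). Of 8 genes that handle short-chain fatty acids and other monocarboxylates 6 were tested, with 3 fold changes above and 3 below 0. Slc16a3 (0.07), Acss2 (0.05) and Slc16a1 (-0.08) were the highest, and the acetate transporter gene Slc5a8 fell under the filter at 0 to 0.185 CPM. Over all 9 lists, 120 of 146 genes were tested, 0 were called higher or lower, and 87 lay within 0.1 of 0 on the log2 scale. The median of the 120 was -0.01, beside -0.0025 for all other genes tested.

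The patterns of the receptor genes over the 4 libraries were compared with those of 68 tested marker genes of islet and other pancreatic cell types. The measure was the Euclidean distance of log2 CPM centred on the mean of the 4 libraries. With so few libraries and levels this even, many genes lie close, and a small distance describes these libraries only. Nearest to Ffar1 were the alpha-cell gene Irx2 (distance 0.0439) and the endothelial genes Plvap (0.0513) and Kdr (0.0542), beside a median of 0.338 over the markers. Rbp4 was nearest to Ffar2 (0.0302), ahead of Flt1 and Ucn3. The Schwann-cell gene Ngfr was nearest to Ffar3 (0.0681), ahead of Col1a1 and Pdgfra. Mafa was nearest to Ffar4 (0.0868), ahead of Rgs5 and Cdh5. For Gpr119 the distances were larger, with Cd68 at 0.561 and Mafa at 0.620, beside a median of 0.770 over the markers.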

How the data were processed

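The authors deposited whole-number gene counts of 4 libraries, per the file headers, with no normalization. For the check of units the deposited non-depleted columns stood as estimated counts because of a word in their headers, but all values were whole and were used as counts. Processing used cutadapt 4.8, STAR 2.7.11b and mouse build GRCm38, per the submitters' processing notes, which assign no roles. How genes were counted, and whether by strand, is not given in the sources used here. All 55536 gene IDs and symbols matched GENCODE M21, which gave lengths and positions.

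The main test was edgeR 4.0.16 under R 4.3.3 (filterByExpr, TMM, glmQLFit with robust estimation on group alone, glmQLFTest), over 19723 genes, with a threshold of 0.05. Standard errors came from the fold change and its F statistic. On simulated counts of 19721 genes, the step recovered 50 of 50 genes changed 4-fold, with 3 false calls. These counts had the same variation beyond counting error for all genes and no difference shared by replicate number. DESeq2 1.42.0, limma-voom (limma 3.58.1), other scalings and filters, counts halved, a replicate block and leaving out each library were alternatives.

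The genes followed and the lists were chosen with earlier results of these data known, and the motifs after the windows were seen. Named from each list were its 3 genes of highest mean CPM, any past the threshold, the nearest genes on each side of the receptor genes, and the 3 marker genes nearest in pattern. A marker gene that this rule names is not reported here. Of all counts from 2 to 9, 80.0 to 84.0% in each library were even.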

Additional observations from a re-analysis of the deposited data

How the results depend on the processing

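None of the 5 receptor genes was called in any of the 10 alternatives of the fit, with a smallest adjusted p of 0.857. Of 50 recomputed log2 fold changes 47 kept their sign. Those of 3 genes turned when a library was left out: Ffar1 to -0.0284 without non-depleted replicate 1, Ffar2 to 0.0311 without insulin-depleted replicate 1 and Ffar3 to 0.0936 without insulin-depleted replicate 2. The cause was not tested. Over the left-out libraries Ffar1 ranged up to 0.0475, Ffar2 down to -0.115, Ffar3 down to -0.398, Ffar4 from -0.34 to -0.03 and Gpr119 from -0.87 to -0.52. The unadjusted p of Gpr119 rose to 0.153, 0.0996 and 0.134 without non-depleted replicate 1, non-depleted replicate 2 and insulin-depleted replicate 1, and was 0.03125 without insulin-depleted replicate 2. A library left alone in its group was assumed to vary like the others.

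Libraries with the same replicate number deviated together (correlation 0.415 over genes), but the labels do not say that a number marks an animal. With a replicate block, 9 genes were called in place of 2, 2 higher and 7 lower and 0 of them receptor genes. Under that block Gpr119 had a log2 fold change of -0.64 with an unadjusted p of 0.00182 and an adjusted p of 0.857, and Ffar4 had one of -0.21 with an unadjusted p of 0.0866. Scaling by TMM or by totals without Ins1 and Ins2 moved the median of other genes by little (-0.0025 and 0.0016).

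Neighbouring levels without overlap numbered 3 to 4 of 4 pairs under other lengths, totals and left-out libraries. Length mattered most for Ffar1, at 195 CPM per kilobase when its gene count was divided by the coding length. That count was not limited to coding bases, and 78.4% of the longest Ffar1 transcript is untranslated, so this value is not a level of coding sequence alone. The lowest count behind a receptor level was 41, for Gpr119 in insulin-depleted replicate 1. Halving all counts moved its unadjusted p to 0.0355.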

Other observations

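Some other lipid receptor genes, named after their values were seen, differed between the libraries of each group more than between groups. Hcar2, the nicotinic acid and ketone body receptor gene, had 18.5 CPM in replicate 1 and 10.9 CPM in replicate 2 without depletion, and 18.3 and 10.7 CPM with it. The prostaglandin E2 receptor gene Ptger3 had 9.689, 5.815, 9.648 and 5.705 CPM in the same order. The cannabinoid receptor gene Cnr1 went the other way, with 17.5, 24.3, 14.2 and 24.5 CPM. The log2 fold changes between groups were -0.04, -0.04 and -0.10, and none passed the edgeR test over all genes (adjusted p = 1.00 each).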
